A study of Mus musculus with 24 samples.

Results

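miR-22 is a conserved microRNA made from a single hairpin in the mouse genome, and both of its arms were followed here: miR-22-3p, the arm that is usually kept, and miR-22-5p, its partner strand. They are 2 of the 1221 mature miRNA names in the table and were selected on their counts in these libraries: miR-22-3p led total RNA yet was far lower in RNA that had passed through the capture. The cells were 3T9, a mouse embryo fibroblast line that grows without limit in culture, and the study asked how fast miRNAs decay. Cells were fed 4-thiouridine (4SU), a uridine analogue built into new RNA, whose sulphur can be coupled to biotin so that the labelled RNA can be pulled out on streptavidin beads. The labelled libraries hold RNA captured from cells given 300 µM 4SU for 3 h and then moved to 1 mM uridine (the chase) for 0, 2, 4, 6, 8, 10 or 12 h, in 3 experiments that the series design calls independent (21 libraries). Single libraries served as controls: the negative extraction, which is RNA of cells without 4SU taken through the same capture, total RNA of cells pulsed with 4SU, and total RNA of cells without 4SU. All came from the same line, grown in medium with serum, and no genotype or knockdown separates them.

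A miRNA hairpin is cut by Drosha and Dicer into a duplex of the 3p and 5p strands. One strand is loaded into an Argonaute protein and guides it to messenger RNAs through its seed, the bases 2 to 8, and the other strand is mostly lost. miR-22-3p is abundant in heart, muscle and many cultured cells and has been reported in mouse and human to take part in senescence and muscle growth.

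The sequences are shown because the seed, the number of uridines that 4SU can replace and the bases beside each arm bear on the values below. They are the RefSeq entries of the GRCm38.p6 build, 5′ to 3′, with the seed in capitals in the mature strands and both arms in capitals in the hairpin.
mmu-miR-22-3p: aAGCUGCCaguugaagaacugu
mmu-miR-22-5p: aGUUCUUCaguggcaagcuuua
Mir22 hairpin: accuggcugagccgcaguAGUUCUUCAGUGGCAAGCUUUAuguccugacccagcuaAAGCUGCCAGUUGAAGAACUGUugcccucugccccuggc
The hairpin of 95 bases lies on the plus strand at chr11:75463716-75463810 (GRCm38). miR-22-5p occupies chr11:75463734-75463755 and miR-22-3p chr11:75463772-75463793. In the GENCODE annotation of that build the hairpin falls within exon 2 of the long noncoding RNA Mir22hg, its host transcript, and within exon 2 of a transcript of the protein-coding gene Tlcd2. miR-22-3p holds 5 uridines and miR-22-5p holds 8, each in 22 bases. No other of the 1679 mouse mature miRNAs in the RefSeq table shares either seed (0 for AGCUGCC and 0 for GUUCUUC). Of the 1221 names in the table, 1037 have a RefSeq sequence and were covered by this check.

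The miRNA counts of a library summed to 1133048 to 7886484 in labelled RNA, 283922 in the negative extraction, 4525638 in total 4SU RNA and 6412428 in total unlabelled RNA. Levels are given as CPM, counts per 1000000 of this sum. A level of 3 counts is 0.38 to 2.65 CPM in labelled libraries and 10.6 CPM in the negative extraction. In the table's second header line, whose meaning the labels do not give, the labelled and the total RNA libraries never share a code, experiments 2 and 3 each have a code of their own, and the negative extraction shares that of experiment 1. Differences between captured and total RNA therefore cannot be told apart from differences between these codes. CPM is a share of the sequenced pool, with no spike-in, so a change of miR-22 per cell and a change of all other miRNAs cannot be told apart. Mesenchymal miRNAs, the class that marks fibroblasts, summed to 122461 to 229825 CPM over 7 names in labelled libraries, 116807 CPM in the negative extraction, 235517 CPM in total 4SU RNA and 260261 CPM in total unlabelled RNA. Blood markers summed to 185 to 734 CPM over 7 names in labelled libraries, 324 CPM in the negative extraction, 239 CPM in total 4SU RNA and 222 CPM in total unlabelled RNA, and the muscle markers, of which 5 were in the table, stayed at or below 22.1 CPM in every library. Epithelial markers differed more: they summed over 6 names to 201 to 1151 CPM in labelled libraries and 740 CPM in the negative extraction. Total 4SU RNA had 33.1 CPM of them and total unlabelled RNA 186 CPM. Most of this sum was miR-205-5p, with a mean of 534 CPM in labelled libraries and 648 CPM in the negative extraction. It had 30.9 CPM in total 4SU RNA and 182 CPM in total unlabelled RNA. No list held a miRNA at 0 in all libraries, and their part in the results on miR-22 was not tested.

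miR-22-3p was present at 3.00 to 5.79% of miRNA counts in the labelled libraries and at 3.69% in the negative extraction, against 16.9% in total 4SU RNA and 19.3% in total unlabelled RNA. It ranked first of all miRNAs in both total RNA libraries and 5th to 10th in the labelled ones. Since the contrast of captured with total RNA chose this miRNA, its values are a description and carry no test. In experiment 1, miR-22-3p stood at 43589, 56520, 57862, 55862, 55932, 52455 and 45529 CPM at 0, 2, 4, 6, 8, 10 and 12 h of chase. In experiment 2 it stood at 42573, 29981, 34266, 34411, 54796, 44484 and 41544 CPM at the same times. In experiment 3 the values were 38321, 37932, 38081, 37931, 37425, 34364 and 38129 CPM. Experiment 1 was the highest at every time, experiment 3 was nearly flat, and experiment 2 swung the most, low at 2 h and high at 8 h. The negative extraction had 36912 CPM, inside the range of the labelled libraries, whereas total 4SU RNA had 169206 CPM and total unlabelled RNA 192630 CPM. The lower of the total RNA libraries was thus 2.92-fold above the highest labelled library. This gap is part of the contrast that chose miR-22-3p, and how many other miRNAs were separated in this way was not counted.

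**Figure D1:**
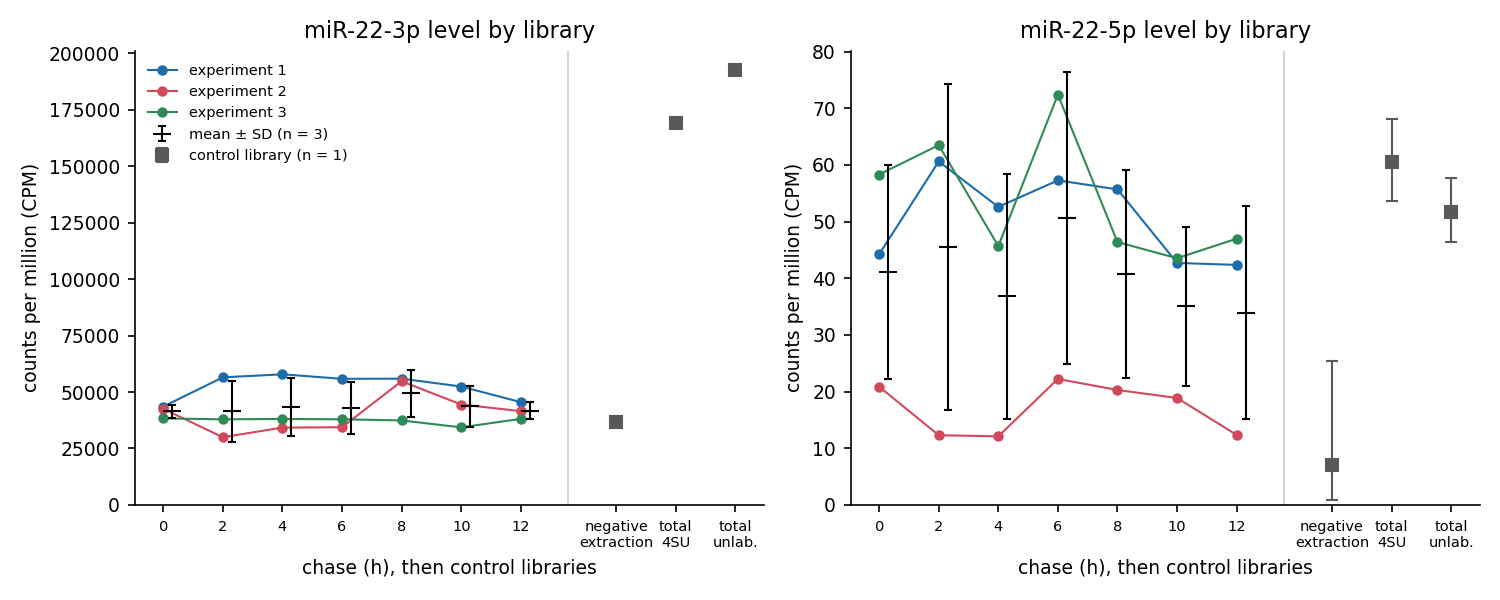
Level of miR-22-3p (left) and miR-22-5p (right) in CPM against hours of chase, with a line for each experiment, the mean and SD over the 3 experiments in black, and the 3 control libraries as squares with 95% exact counting intervals, which are smaller than the symbol for miR-22-3p. All labelled libraries lie between 29981 and 57862 CPM for miR-22-3p, near the negative extraction and far below both total RNA libraries; for miR-22-5p, experiment 2 lies below experiments 1 and 3 at every time.

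At 0 h, directly after the pulse, miR-22-3p averaged 41494 ± 2794 CPM (SD, n = 3), which is 0.229 of the mean of the total RNA libraries, or -2.12 on the log2 scale of CPM + 1. Among the 161 miRNAs with at least 100 CPM in total RNA this was the 16th lowest value. Those 161 miRNAs had a median of 0.08, and 5 to 95% of them lay between -3.46 and 1.53. Directly below it in that order came miR-101b-3p (-2.19), miR-98-3p (-2.23) and miR-210-3p (-2.51). Just above it came miR-450a-5p (-2.07), miR-542-3p (-1.95) and miR-181c-5p (-1.87). These neighbours were scarce in total RNA, at 70.5 to 693 CPM per library, while miR-22-3p was the most abundant miRNA there.

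Among the 10 most abundant miRNAs of total RNA, miR-22-3p had the lowest ratio of 0 h to total RNA. miR-30a-5p, a broadly expressed family member, had -1.72, and miR-21a-5p, a growth-linked miRNA second to miR-22-3p in total RNA, had -1.14. The remaining 7 lay between -0.10 and 1.65, with let-7f-5p, a guide strand of the let-7 family, at the top. let-7f-5p averaged 118743 ± 21470 CPM at 0 h (SD, n = 3) and had 147977 CPM in the negative extraction, against 32117 CPM in total 4SU RNA and 43465 CPM in total unlabelled RNA, so its order relative to miR-22-3p was opposite in captured and total RNA.

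**Figure D2:**
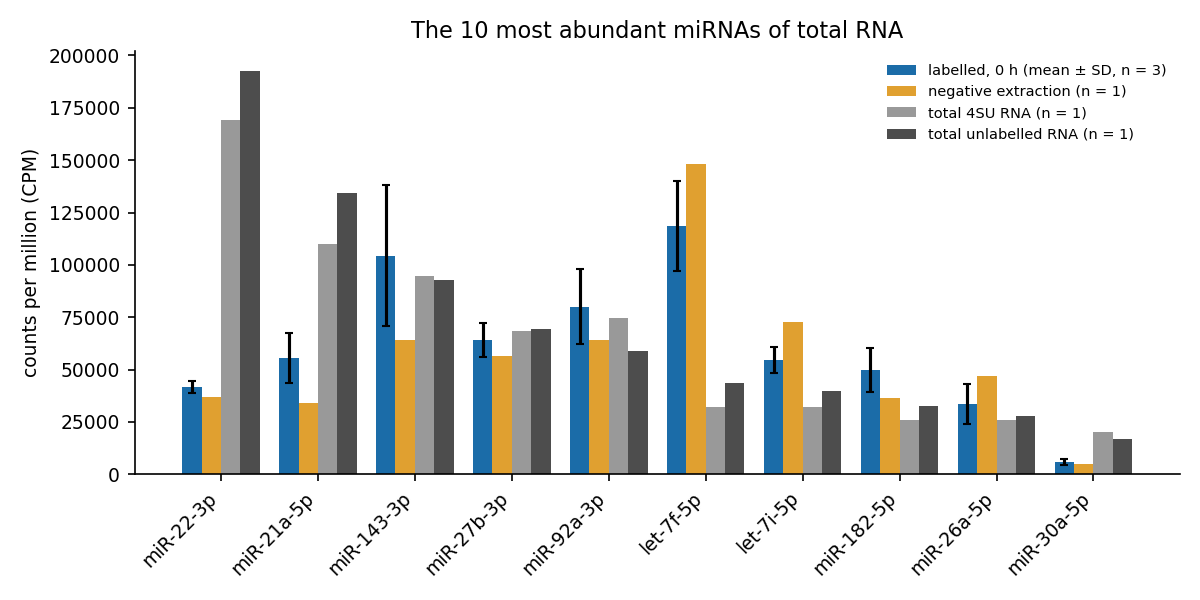
Level in CPM of the 10 most abundant miRNAs of total RNA, in the order of their total RNA mean, in labelled RNA at 0 h (mean and SD, n = 3), the negative extraction, total 4SU RNA and total unlabelled RNA (1 library each). miR-22-3p has the tallest bars in total RNA and is at 41494 CPM at 0 h and 36912 CPM in the negative extraction.

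The negative extraction held miR-22-3p at 0.204 of the total RNA mean (log2 -2.29, the 20th lowest of the 161), although its cells had received no 4SU. Set against the negative extraction, labelled RNA at 0 h was 1.12-fold higher for miR-22-3p (log2 0.17), and the median miRNA of the 161 had 0.19. By this ratio miR-22-3p ranked 79th from the lowest of 161, near the middle. Its gap to total RNA was thus about as large in captured RNA of cells without 4SU as in captured RNA of cells with it. Between the total RNA libraries the gap was small: total 4SU RNA over total unlabelled RNA gave 0.878 (log2 -0.19), while the median miRNA gave 0.25 on the log2 scale.

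Over the chase the level of miR-22-3p relative to total RNA stayed between log2 -2.12 and -1.87 at every time point. Its mean in CPM was 41494 ± 2794 at 0 h, 41478 ± 13620 at 2 h, 43403 ± 12666 at 4 h, 42735 ± 11504 at 6 h, 49384 ± 10373 at 8 h, 43767 ± 9067 at 10 h and 41734 ± 3704 at 12 h (SD, n = 3 each). Ordered by level the times run 8, 10, 4, 6, 12, 0 and 2 h, and every gap between neighbours in that order was under the smaller of their SDs.

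The decay question was tested with edgeR's quasi-likelihood test on all 414 miRNAs that passed the filter on low counts, both arms of miR-22 among them, with Benjamini-Hochberg adjustment and TMM scaling, which keeps the bulk of miRNAs level between libraries. A slope is in log2 units per hour and is relative to the other miRNAs, not a half-life. miR-22-3p had a slope of 0.026 (SE 0.014) with an adjusted p of 0.232, so it was not called; 51 of the 414 miRNAs (12.3%) were, 5.07% of all as gains and 7.25% as losses. Its slope ranked 100th from the highest, and the median of all was -0.0037. With the experiment as a block the same slope, 0.027 (SE 0.0096), had an adjusted p of 0.0333 and was called as a gain, in a fit that called 31.9% of all miRNAs, 15.2% as gains and 16.7% as losses. In the block fit with fewer libraries the slope was 0.030 (adjusted p = 0.0697) without experiment 1, 0.019 (adjusted p = 0.112) without experiment 2 and 0.028 (adjusted p = 0.143) without experiment 3, so its sign held and the call did not. Within single experiments, with TMM scaling, the slope was 0.019, 0.042 and 0.025 in experiments 1, 2 and 3. These edgeR fits had adjusted p of 0.404, 0.165 and 0.0622, and the slope was positive in 3 of 3. They were not repeated with total counts. In CPM the same experiments had 43589, 42573 and 38321 at 0 h and 45529, 41544 and 38129 at 12 h, so a rise in each is not shown by CPM.

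The slope also depended on how libraries were scaled. Scaled by total counts alone, the median slope of all 414 miRNAs moved to -0.023 and that of miR-22-3p to 0.0069 (adjusted p = 0.823 by edgeR's quasi-likelihood test; 0.0074 and adjusted p = 0.62 with the block). In that scaling miR-22-3p kept its place above the median, with almost no trend of its own, as the CPM values show.

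At 12 h against 0 h the fitted log2 change of miR-22-3p was 0.25 (SE 0.22, adjusted p = 0.729 by edgeR's quasi-likelihood test, with 1.21% of miRNAs called). With the block it was 0.25 (SE 0.15, adjusted p = 0.259, with 21.7% of miRNAs called). The plain means were 41734 CPM at 12 h and 41494 CPM at 0 h. Total count scaling put it at 0.0082, and there the median of all miRNAs was -0.29 rather than -0.05. At 2 h against 0 h the change of miR-22-3p was 0.043 (SE 0.22, adjusted p = 0.998), in a contrast that called 0 of 414 miRNAs (0.0%) by edgeR, 3.38% by edgeR with the block (where miR-22-3p had 0.021 and an adjusted p of 0.979), 1 each by DESeq2 and limma-voom, and 10 at an unadjusted p under 0.05. The direction of miR-22-3p at 2 h was not the same in all scalings, since total counts gave -0.00059.

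Of the other abundant miRNAs, miR-92a-3p, a product of a proliferation-linked cluster, rose over the chase relative to the other miRNAs in TMM scaling. Its slope was 0.072 (SE 0.018, adjusted p = 0.00897 by edgeR). miR-21a-5p also rose, with 0.062 (SE 0.015, adjusted p = 0.00897). Slopes scaled by total counts are not given here for these miRNAs. The remaining 7 of the 10 did not pass the test without the block, with slopes of -0.018 to 0.042. With the block, 3 of these 7 passed as gains: miR-27b-3p (adjusted p = 0.000919), let-7i-5p (0.00483) and miR-30a-5p (0.04998).

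miR-22-5p was a rare strand. It had 14 to 478 counts per labelled library, or 12.1 to 72.4 CPM with a median of 44.2. In experiment 1 its level lay between 42.4 and 60.6 CPM, in experiment 2 between 12.1 and 22.2 CPM, and in experiment 3 between 43.5 and 72.4 CPM. All 7 libraries of experiment 2 were thus below all 14 of the others, a gap that follows the experiment and not the hours of chase. The negative extraction had 2 counts, under the floor of 3, total 4SU RNA had 274 counts (60.5 CPM) and total unlabelled RNA had 332 (51.8 CPM).

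The level of miR-22-5p at 0 h overlapped that in total RNA. It had 44.2, 20.9 and 58.3 CPM at 0 h in experiments 1, 2 and 3, which is log2 -0.44 of their mean against total RNA, with -0.34, -1.39 and 0.05 in the single experiments. The partner strand in the same libraries stood at -2.12. In the negative extraction miR-22-5p was at 0.136 of its level in total unlabelled RNA, with a 95% counting interval of 0.0164 to 0.495, so in captured RNA without 4SU both arms were below total RNA.

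Over the chase miR-22-5p averaged 41.1 ± 18.9 CPM at 0 h, 45.5 ± 28.8 at 2 h, 36.8 ± 21.7 at 4 h, 50.6 ± 25.7 at 6 h, 40.8 ± 18.4 at 8 h, 35.04 ± 14.0 at 10 h and 33.9 ± 18.8 at 12 h (SD, n = 3 each). Neighbouring times in the order of level differed by less than the smaller SD in each case. Its slope was -0.0048 (SE 0.037, adjusted p = 0.956 by edgeR's quasi-likelihood test), 211th from the highest of 414, and its changes were -0.021 (SE 0.61, adjusted p = 0.99) at 12 h and 0.19 (SE 0.60, adjusted p = 0.998) at 2 h, both against 0 h. With the block the slope was -0.0028 (SE 0.015) with an adjusted p of 0.921. The 12 h and 2 h changes with the block were -0.076 (SE 0.22, adjusted p = 0.842 by edgeR) and 0.10 (SE 0.20, adjusted p = 0.911).

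The arms were then compared within each library, where scaling drops out. For every 1000 counts of miR-22-3p there were 0.814 to 1.07 counts of miR-22-5p in experiment 1, 0.297 to 0.646 in experiment 2 and 1.20 to 1.91 in experiment 3, so the 3 experiments did not overlap. The ratio was 0.191 in the negative extraction (95% interval 0.0231 to 0.690), 0.358 in total 4SU RNA (0.317 to 0.403) and 0.269 in total unlabelled RNA (0.241 to 0.299). All libraries of experiments 1 and 3 lay above both total RNA libraries, and experiment 2 overlapped total 4SU RNA. The shift of the minor over the major arm at 0 h against total RNA was 1.68 on the log2 scale. It was the 12th highest of 68 hairpins with both arms measured, whose median was 0.25, and 39 of 68 were positive. Because miR-22-3p was chosen for its low level in captured RNA, that choice raises the ratio in captured RNA. This shift, its rank and the order of labelled and total RNA are therefore a description and carry no test.

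During the chase the 5p to 3p ratio of miR-22 had a mean slope of -0.027 log2 per hour (SE 0.0047 over n = 3 experiments), with -0.018, -0.034 and -0.030 in experiments 1, 2 and 3. A two-sided permutation test of the hours within experiments gave p = 0.0554, so the slope did not pass 0.05, though it was negative in 3 of 3 experiments. Without experiment 2's library at 12 h the slope was -0.019 with a permutation p of 0.245, and without its library at 6 h it was -0.027 with a permutation p of 0.0164.

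**Figure D3:**
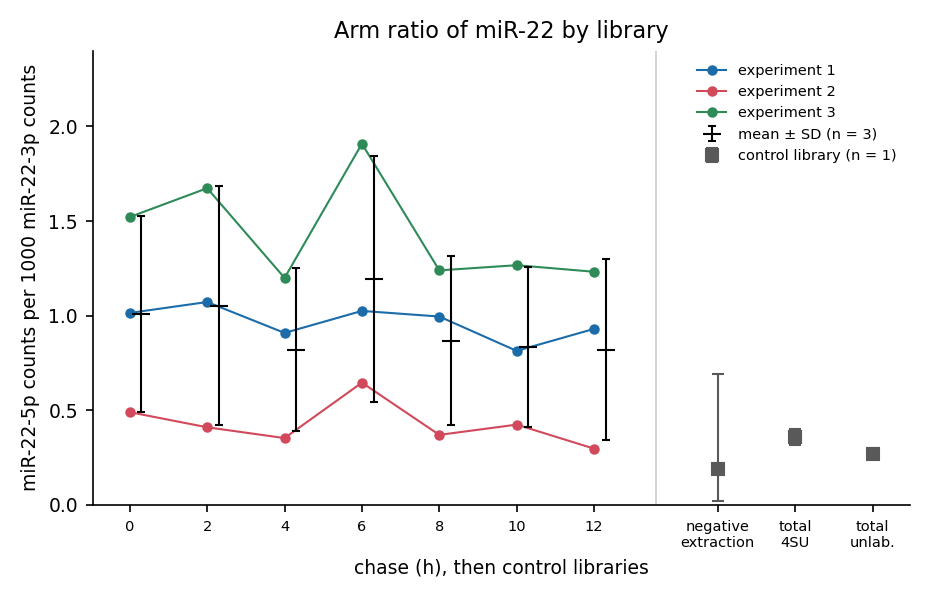
Counts of miR-22-5p per 1000 counts of miR-22-3p against hours of chase, one line per experiment, with the mean and SD over the 3 experiments in black and the 3 control libraries as squares with 95% exact counting intervals. The 3 experiments are separate, at 0.297 to 0.646 for experiment 2, 0.814 to 1.07 for experiment 1 and 1.20 to 1.91 for experiment 3, while the totals lie at 0.358 and 0.269.

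The table splits each arm into forms: the canonical sequence, trimmed forms, extensions that match the hairpin (templated) and additions that do not. miR-22 had 25 entries, of which 11 were summed, and the rest repeat or subdivide those. The canonical form made up 91.4 to 95.0% of miR-22-3p in labelled libraries, 95.8% in the negative extraction, 97.7% in total 4SU RNA and 97.8% in total unlabelled RNA. Most of the remainder was trimmed.

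Trimmed miR-22-3p stood apart from the canonical form. It had 2027 to 2940 CPM in the labelled libraries (median 2399), 1205 CPM in the negative extraction, 2380 CPM in total 4SU RNA and 2838 CPM in total unlabelled RNA. Of the labelled libraries only the 8 h library of experiment 2 (2940 CPM) was above total unlabelled RNA. The labelled median was just above total 4SU RNA. All 3 libraries at 0 h (2208, 2252 and 2233 CPM) were below both total RNA libraries. All 21 exceeded the negative extraction. At 0 h it averaged 2231 ± 22.1 CPM (SD, n = 3), which is 0.855 of total RNA, or -0.23 on the log2 scale. The canonical form had 27760 to 54774 CPM in the labelled libraries, 35344 CPM in the negative extraction, 165315 CPM in total 4SU RNA and 188371 CPM in total unlabelled RNA. At 0 h the canonical form averaged 38949 ± 2781 CPM (SD, n = 3), 0.220 of total RNA (log2 -2.18). In the negative extraction the log2 ratio to total RNA was -1.11 for the trimmed and -2.32 for the canonical form. Templated 3′ extensions (0.236), non-templated 3′ additions (0.204), templated 5′ extensions (0.236) and non-templated 5′ additions (0.296) were also well below total RNA at 0 h, as ratios of CPM.

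**Figure D4:**
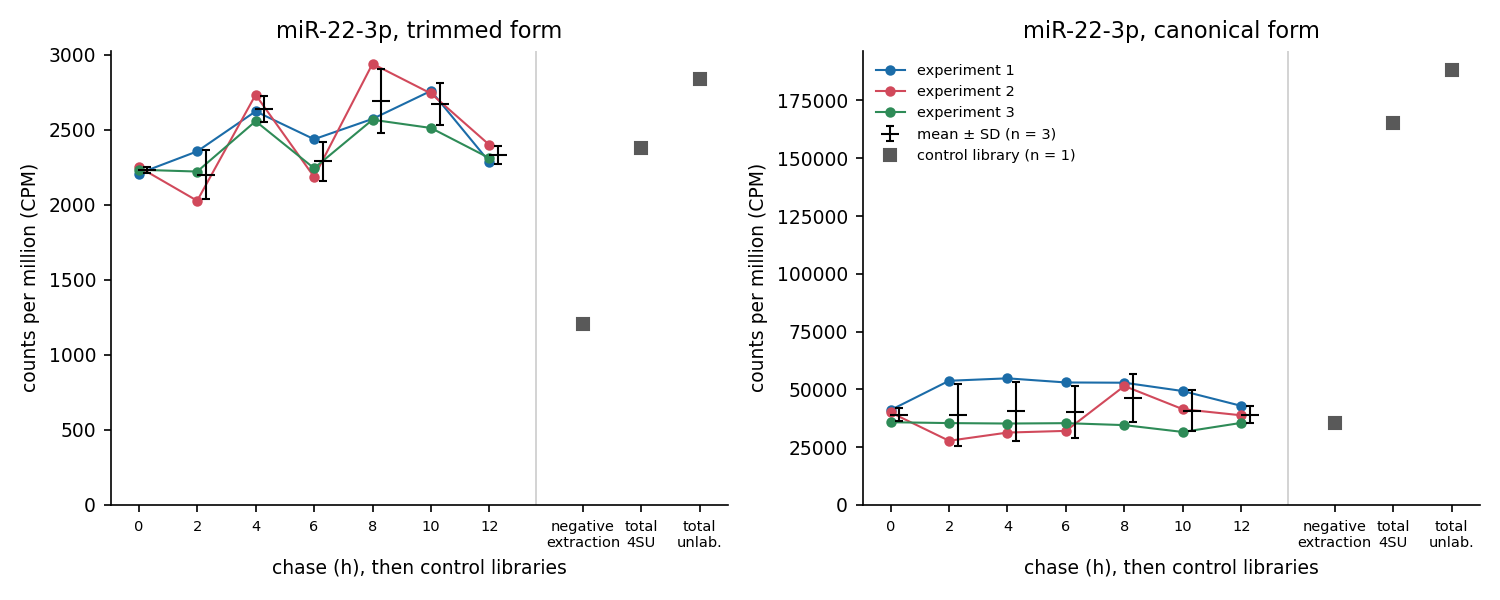
Level in CPM of the trimmed (left) and the canonical (right) form of miR-22-3p against hours of chase, one line per experiment, with the mean and SD over the 3 experiments in black and the control libraries as squares. The trimmed form lies at 2027 to 2940 CPM in labelled RNA, above the 1205 CPM of the negative extraction. It is near the 2380 CPM of total 4SU RNA and mostly below the 2838 CPM of total unlabelled RNA. The canonical form lies at 27760 to 54774 CPM, near the negative extraction and below total RNA.

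As a share of the arm, trimmed miR-22-3p was 4.17 to 7.98% in labelled libraries (median 5.83%), 3.26% in the negative extraction (95% exact interval 2.93 to 3.62%), 1.41% in total 4SU RNA (1.38 to 1.43%) and 1.47% in total unlabelled RNA (1.45 to 1.49%). Every labelled library was above both total RNA libraries and the negative extraction. The share lay at 4.17 to 5.26% in experiment 1, 5.29 to 7.98% in experiment 2 and 5.83 to 7.31% in experiment 3. A trimmed share above the negative extraction was not particular to miR-22-3p. The labelled median was also above it for miR-143-3p (36.1% against 31.1%), let-7f-5p (9.21% against 7.59%) and miR-30a-5p (2.90% against 2.48%). The same held for the rest of the most abundant miRNAs of total RNA compared above. How many further miRNAs share this excess was not counted. Among the 63 miRNAs with at least 1000 CPM in total RNA, the ratio of the labelled median to the total RNA mean of this share was highest for miR-22-3p, at 4.05, with a median of 1.14 over the 63. Counted as a difference, 4.39 percentage points, it ranked 16th, because many miRNAs start from a larger trimmed share. This share is taken over all miR-22-3p counts, whose low level in captured RNA chose this miRNA. A lower arm whose trimmed form is less reduced raises the share, so both ranks follow in part from the choice and carry no test. The share was higher in labelled than in total RNA for 44 of the 63 (69.8%), and 11 of the 63 (17.5%), miR-22-3p included, had every labelled library above both total RNA libraries. For miR-21a-5p, which was also lower after capture, the trimmed share was 1.66% in labelled RNA against 1.44% in total RNA, and for miR-30a-5p it was 2.90% against 4.35%.

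Across the chase, the trimmed form of miR-22-3p had a slope of 0.030 log2 per hour (SE 0.011, adjusted p = 0.0731) and non-templated 3′ additions had 0.044 (SE 0.017, adjusted p = 0.103) in edgeR's quasi-likelihood test over 983 isoform entries, of which 104 (10.6%) were called. None of the 8 miR-22 entries that passed the filter on low counts was called (0 of 8); the other 3 of 11 were too rare to test. With the experiment as a block, when 29.3% of entries were called, these 2 entries had slopes of 0.030 (adjusted p = 0.0064) and 0.044 (adjusted p = 0.00816) and were called as gains, and the canonical form with 0.023 (adjusted p = 0.0833) was not. Scaled by total counts with the block, the slopes were 0.014 (adjusted p = 0.211) for the trimmed form and 0.028 (adjusted p = 0.115) for the additions, which ended both calls. The trimmed share itself had no called trend: 0.021 percentage points per hour (SE 0.033, n = 3 experiments; two-sided permutation test, p = 0.596, which is also the value adjusted over 5 shares), and it was negative in experiment 2 (-0.042) and positive in experiments 1 and 3 (0.038 and 0.067).

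Non-templated bases on miR-22-3p were rare and of one kind at each end. Additions at the 3′ end made up 0.365 to 0.710% of the arm in labelled libraries, 0.754% in the negative extraction, 0.702% in total 4SU RNA and 0.546% in total unlabelled RNA. Adenosine alone accounted for 20087 of 20854 of them in labelled RNA (96.3%), 97.5% in the negative extraction and 95.4% in total RNA. In all other miRNAs together the adenosine share was 30.7% in labelled RNA, 36.1% in the negative extraction and 25.5% in total RNA. At the 5′ end, cytidine made up 1851 of 1913 additions in labelled RNA (96.8%) and 93.5% in total RNA. In all other miRNAs together it made up 33.5% and 14.3%. The pooled shares weigh miRNAs by their number of additions. How many single miRNAs also have a single main base was not counted. In the hairpin the base after miR-22-3p is u and the base before it is a, so a single added u at the 3′ end or a at the 5′ end would match the hairpin. The table lists 72 uridine additions at the 3′ end and 3 adenosine additions at the 5′ end in labelled RNA.

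In miR-22-5p the trimmed form was a large part of the arm. It was 40.9 to 100% of the arm in labelled libraries (median 56.6%), 49.3% in total 4SU RNA and 62.7% in total unlabelled RNA, and the canonical form was 0 to 53.8% (median 40.7%), 45.3% and 34.3% in the same libraries. The values of 100% trimmed and 0% canonical come from the 12 h library of experiment 2, where all 14 counts were trimmed. The canonical share of miR-22-5p had a slope of -0.998 percentage points per hour (SE 0.352, n = 3 experiments; two-sided permutation test, p = 0.0387, adjusted p = 0.113 over 5 shares) and the trimmed share one of 1.09 (SE 0.611; permutation p = 0.0453, adjusted p = 0.113). Neither passed after adjustment, and without that 12 h library the slopes were -0.268 and 0.393, each with an adjusted permutation p of 0.574.

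Because 4SU replaces uridine, the number of uridines was set beside the level after capture for the 137 of the 161 miRNAs whose sequence RefSeq held. Of these, 21 had fewer uridines than miR-22-3p, 24 had the same 5, itself included, and 92 had more; the median was 6. Across these miRNAs, which share the same libraries and depth, the log2 ratio of 0 h to total RNA and the uridine number had a Spearman rho of 0.121 and a Pearson r of 0.0835. The same ratio for the negative extraction, which holds no 4SU, gave a Spearman rho of 0.0642. The 24 miRNAs with 5 uridines ran from -4.42 to 1.25, with a median of -0.40, so miR-22-3p at -2.12 lay within a wide span. At a minimum of 1000 CPM the Spearman rho was 0.30 at 0 h and 0.272 in the negative extraction over 57 miRNAs, and at a minimum of 10 CPM it was 0.0074 and 0.0024 over 237.

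**Figure D5:**
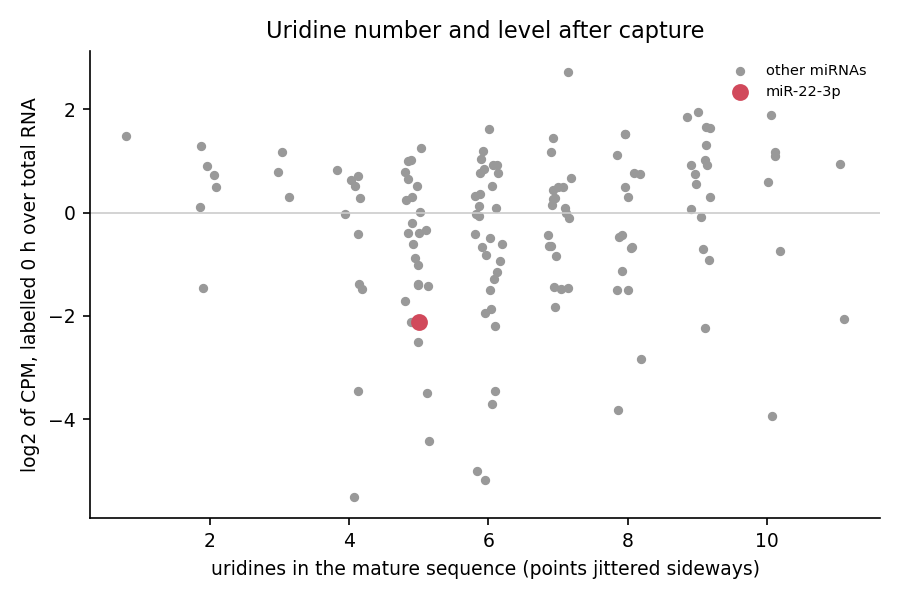
Log2 ratio of CPM in labelled RNA at 0 h over total RNA against the number of uridines in the mature sequence for 137 miRNAs with at least 100 CPM in total RNA; points are shifted sideways at random within each number. miR-22-3p, in red, has 5 uridines and a ratio of -2.12, and other miRNAs with 5 uridines run from -4.42 to 1.25.

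The miRNAs whose levels went most closely with miR-22-3p over all 24 libraries were miR-17-5p (Pearson r of log2 CPM 0.902), miR-21a-3p (0.895), miR-101b-3p (0.881), miR-181c-5p (0.875) and miR-30e-5p (0.872), out of 142 with at least 100 CPM on average. All 5 averaged less in labelled than in total RNA, for instance 134 against 1534 CPM for miR-21a-3p, so the gap between captured and total RNA enters each of these values. Within the 21 labelled libraries alone the 5 nearest were miR-17-5p, miR-93-5p, miR-29a-3p, miR-28a-5p and miR-130b-3p, at 0.868 to 0.830. miR-22-5p went most closely with miR-24-3p (0.938), miR-296-5p (0.923) and miR-143-3p (0.911) over the 24 libraries, out of 266 with at least 10 CPM. Within the 21 labelled libraries it went with miR-15b-3p (0.966), miR-143-3p (0.965) and miR-24-3p (0.957). None of these values was corrected for the experiment. miR-22-5p lay at 12.1 to 22.2 CPM in experiment 2, against 42.4 to 60.6 and 43.5 to 72.4 CPM in experiments 1 and 3. Gaps between experiments therefore enter these values, and covariation over the hours of chase was not separated from them.

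Of 10 tested miRNAs linked to p53 or senescence, settings in which miR-22 has been reported, 0 rose and 0 fell over the chase by edgeR. These calls used TMM scaling and an adjusted p under 0.05, so they are relative to the other miRNAs. With the block 2 rose and 0 fell. Of all miRNAs 5.07% rose and 7.25% fell, and 15.2% and 16.7% with the block. Scaled by total counts, 10 of all 414 rose and 47 fell, and 25 and 122 with the block. The median slope was 0.0078 in the list and -0.0037 over all 414. The most abundant of these were miR-143-3p, at 104411 ± 33756 CPM at 0 h (SD, n = 3), and miR-16-5p, at 13835 ± 3318 CPM.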

How the data were processed

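Small RNA libraries of 3T9 cells were sequenced after 4SU capture (21 libraries) or as controls (3 libraries). The authors deposited read counts per library, whole numbers for each isoform class of each mature miRNA. Per the submitters' processing notes, CASAVA 1.8.0 was used. How reads were aligned, which miRNA annotation was counted, how classes were defined and what became of reads with several matches is not given in the sources used here. Of 7129 entries, 1 duplicate was removed. Totals of non-templated additions equalled the sum by base in 25632 of 25632 cells, so only totals were summed per miRNA. Coordinates come from RefSeq and GENCODE on GRCm38, and 1037 of 1221 names matched a RefSeq sequence.

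edgeR 4.0.16 (quasi-likelihood test, R 4.3.3) was fitted to all miRNAs, or all isoform entries, of the labelled libraries with TMM scaling, filterByExpr by time point and Benjamini-Hochberg adjustment at 0.05. DESeq2 1.42.0, limma 3.58.1 (voom), other scalings, no filter, and fits without single libraries, experiments or times were alternatives. Ratios and shares were tested by permuting hours within experiments (scipy 1.17.1, numpy 2.4.6, two-sided, 100000 resamples); the arm ratio had a pseudocount of 0.5 counts, and the shares were classes averaging at least 1% of an arm. Captured and total RNA were set side by side without a test, with a pseudocount of 1 CPM. Intervals at 95% are exact and cover counting error only, as the reads carry no molecular identifiers. The fits were tested on simulated data.

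Experiment numbers from the labels pair the libraries: deviations from time means correlated at 0.311 to 0.738 in all 63 same-experiment pairs. In 126 pairs of different experiments and times they correlated at -0.647 to 0.227. Taking out the time means itself lowers the correlations between experiments, so that second range is not an independent reference. The members, lists and tests were chosen with earlier results of these data known. Named miRNAs are both arms, the 10 most abundant of total RNA, the nearest 3 on either side of miR-22-3p in the order of captured over total RNA, the closest by correlation (5 for miR-22-3p and 3 for miR-22-5p) and the 2 most abundant of the list linked to p53 or senescence; 1 further list is not reported here. The lists of blood, epithelial, muscle and mesenchymal miRNAs are given as sums, with miR-205-5p named as the main part of the epithelial one.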

Additional observations from a re-analysis of the deposited data

How the results depend on the processing

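Of 646 alternative values, 573 kept their direction and their side of the threshold, 46 reversed, 24 newly passed the threshold and 3 moved by more than the spread between experiments; of the fits run without the block, 0 called the level of either arm. The replicate block (the experiment as a term) gave the slope of miR-22-3p as 0.027, and with upper quartile scaling 0.037, both called, and 0.40 at 12 h against 0 h (adjusted p = 0.045, against 0.0029 with the block and total counts); across all 42 alternatives its slope was 0.0069 to 0.042, with adjusted p from 0.00226 to 0.823. The block changed no other call of an arm. At 2 h miR-22-3p reversed under total counts (-0.00059; -0.040 with the block). The slope of miR-22-5p reversed under upper quartile scaling (0.0059; 0.0072 with the block), limma-voom (0.0032), without 12 h (0.0063), and in experiments 1 and 2 alone (0.0012 and 0.0081), and its 12 h change under upper quartile scaling (0.13; 0.071 with the block). Among isoform slopes under total counts, templated 3′ extensions of miR-22-3p (-0.0025), its non-templated 5′ additions (-0.0079; -0.0087 with the block) and trimmed miR-22-5p (-0.0072; -0.0065 with the block) reversed; under upper quartile scaling alone trimmed miR-22-3p (0.037) and its non-templated 3′ additions (0.050) passed, both also with the block (0.037 and 0.050), as did its canonical form with the block (0.030).

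The arm ratio slope passed with canonical forms only (-0.099, permutation p = 0.0171). In that fit the 12 h library of experiment 2 had 0 canonical miR-22-5p counts and entered through the pseudocount of 0.5 counts. The canonical fit was not repeated without this library. With all forms the arm ratio slope had a permutation p of 0.536 when hours were permuted across experiments. Without 0 h the trimmed share of miR-22-3p reversed (-0.0044), and the canonical and trimmed shares of miR-22-5p passed (-1.75 and 1.91 points per hour, adjusted permutation p = 0.00765). These fits keep the 12 h library of experiment 2, where all 14 counts of miR-22-5p were trimmed, and were not repeated without it. Labelled over total RNA for miR-22-3p moved to -2.28 with TMM over 24 libraries, and the uridine rho to 0.0074 and 0.30. The causes were not tested.

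Leaving out 1 library or experiment at a time, the slope ranged from 0.020 to 0.030 for miR-22-3p and from -0.019 to 0.015 for miR-22-5p, the 12 h change from 0.18 to 0.32 and from -0.36 to 0.38, and the 2 h change from -0.19 to 0.27 and from -0.076 to 0.63. The arm ratio ranged from -0.032 to -0.019; it passed without experiment 1 at 4 or 12 h, experiment 2 at 4 or 6 h, or experiment 3 at 4 or 6 h (permutation p 0.0164 to 0.048). In points per hour, shares of miR-22-3p ranged from -0.057 to 0.0082 (canonical) and from -0.019 to 0.052 (trimmed). Those of miR-22-5p ranged from -1.44 to -0.27 (canonical), from 0.39 to 1.58 (trimmed) and from -0.32 to 0.051 (3′ additions). The canonical and trimmed shares of miR-22-5p passed without experiment 1 or 2 at 0 h. Those passing fits keep the 12 h library of experiment 2, where all 14 counts of miR-22-5p were trimmed. Labelled over total RNA ranged from -2.16 to -2.07 for miR-22-3p and from -0.77 to -0.13 for miR-22-5p. Isoform slopes of miR-22-3p ranged from 0.024 to 0.035 (trimmed, called without experiment 1 at 12 h), from 0.032 to 0.051 (non-templated 3′), from 0.0022 to 0.035 (templated 3′), from -0.0028 to 0.019 (non-templated 5′), from -0.014 to 0.048 (templated 5′) and from 0.015 to 0.031 (canonical), and those of miR-22-5p from -0.055 to -0.014 (canonical) and from -0.0055 to 0.019 (trimmed). Each control is 1 library, and the negative extraction, with 2 counts of miR-22-5p, limits what can be said of that arm.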
